A study of Mus musculus with 12 samples.

Results

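The mesenchymal programme of mouse gastruloids was read from 9 genes, the transcription factors *Snai1*, *Snai2*, *Twist1*, *Twist2*, *Zeb1*, *Zeb2* and *Prrx1*, and the structural genes *Vim* and *Fn1*. They are 9 of the 55141 genes in the deposited count table, and all 9 passed the filter on low counts in every comparison. The genes were chosen by name, as known regulators and markers of the epithelial-to-mesenchymal transition, with earlier results of these same comparisons in view. Their values are therefore given as a description, and no count of them is read as support for a pattern. Adjusted p-values below come from fits over all genes and state only how a gene ranked in its own fit.

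In the epithelial-to-mesenchymal transition, cells of an epithelial sheet lose their junctions and become migratory, as they do when mesoderm forms during gastrulation. Snail, Twist and Zeb proteins are DNA-binding factors that act on E-boxes and are known for repressing epithelial genes such as E-cadherin. Vimentin and fibronectin are the filament and matrix proteins most often used to mark cells that have gone through the transition, and several of the factors are also used as markers of paraxial and limb mesenchyme.

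Gastruloids are cultured clumps of stem cells that model the early embryo and lay down an anteroposterior axis. They were grown from the 129/SVEV mouse line, with 300 cells seeded per well, and all groups received 3 µM CHIR99021, an agonist of Wnt signalling, for 24 h from 48 h onwards. The gastruloids were enclosed in a dextran hydrogel at 72 h or at 96 h after seeding, at a concentration of 1.0 mM or of the stiffer 1.5 mM, and all were collected at 120 h. Embedding at 72 h thus also meant a longer stay in the gel, and stage at embedding and time spent embedded cannot be told apart.

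There were 12 poly-A RNA-seq libraries, 3 for each of the 4 combinations, and each library held about 30 gastruloids pooled after dextranase had released them from the gel. No library without a gel was analysed here. Total counts ran from 23011791 to 25149780 per library after embedding at 72 h and from 25398824 to 27609422 after embedding at 96 h, so depth moved with embedding time and its part in the results was not tested. All 10 markers used for gastruloids were detected, although the presomitic factor *Tbx6* (0.832 to 3.21 CPM, counts scaled to library totals) and the caudal epiblast factor *Nkx1-2* (0.245 to 2.41 CPM) were low. Bulk samples do not separate fewer cells of a type from less RNA per cell. The labels call the libraries of a group replicates, and p-values measure the spread between these libraries only.

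Upstream sequences are printed for *Twist2*, the gene with the widest range over the 12 libraries, and for *Snai1*, the gene that followed it. Both come from RefSeq on GRCm38.p6, on the plus strand, 5′ to 3′, and cover the 250 bases before the transcription start. Capitals mark the E-box CAGGTG or its reverse complement CACCTG, the form that Snail and Zeb proteins are known to bind. The *Twist2* window lies at chr1:91801211-91801460 and the *Snai1* window at chr2:167537945-167538194.
Twist2: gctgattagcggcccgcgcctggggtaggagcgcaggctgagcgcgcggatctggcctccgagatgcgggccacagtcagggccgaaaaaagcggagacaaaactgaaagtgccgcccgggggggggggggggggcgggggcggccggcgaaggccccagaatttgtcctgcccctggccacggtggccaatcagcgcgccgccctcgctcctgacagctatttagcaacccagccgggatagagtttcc
Snai1: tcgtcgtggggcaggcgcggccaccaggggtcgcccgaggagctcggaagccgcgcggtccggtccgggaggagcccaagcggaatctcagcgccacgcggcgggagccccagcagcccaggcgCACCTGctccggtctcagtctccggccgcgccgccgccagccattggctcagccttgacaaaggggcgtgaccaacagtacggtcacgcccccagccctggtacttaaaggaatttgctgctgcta

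The single CACCTG of *Snai1* begins at -126 from the start. Of the 9 genes, 6 had promoters in the RefSeq table (*Snai1*, *Twist1*, *Twist2*, *Zeb2* with 4 starts, *Prrx1* and *Vim*), each read from 250 bases before to 50 after the start. CAGGTG, searched on both strands, was present for 1 of these 6 genes, against 20.2% of all 32851 promoters of the same length. The wider palindrome CANNTG, which includes CAGGTG, was also present for 1 of the 6, against 72.3% of all promoters.

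The level per length of each gene was read from FPKM, which scales fragments by gene length and library depth. *Vim* was the highest, at 183 FPKM on average over the 12 libraries (133 to 239), and exceeded *Fn1* in 12 of 12. *Fn1* (81.8, range 62.3 to 124 FPKM) and *Twist1* (68.7, range 48.8 to 78.9 FPKM) came next and overlapped, with *Fn1* above *Twist1* in 8 of 12 libraries.

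The remaining factors were lower. *Twist1* exceeded *Snai1* (19.2, range 9.83 to 34.0 FPKM) in 12 of 12 libraries, and *Snai1* exceeded *Snai2* (12.4, range 8.26 to 15.5 FPKM) in 11 of 12. *Twist2* (9.96, range 3.57 to 17.8 FPKM), *Zeb1* (8.69, range 7.57 to 10.9 FPKM) and *Prrx1* (8.12, range 6.12 to 10.5 FPKM) were not separated by their spread, since *Snai2* was above *Twist2* in 8, *Twist2* above *Zeb1* in 7 and *Zeb1* above *Prrx1* in 8 of 12 libraries. *Zeb2* was the lowest (4.51, range 2.63 to 6.46 FPKM), below *Prrx1* in 12 of 12.

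**Figure D1:**
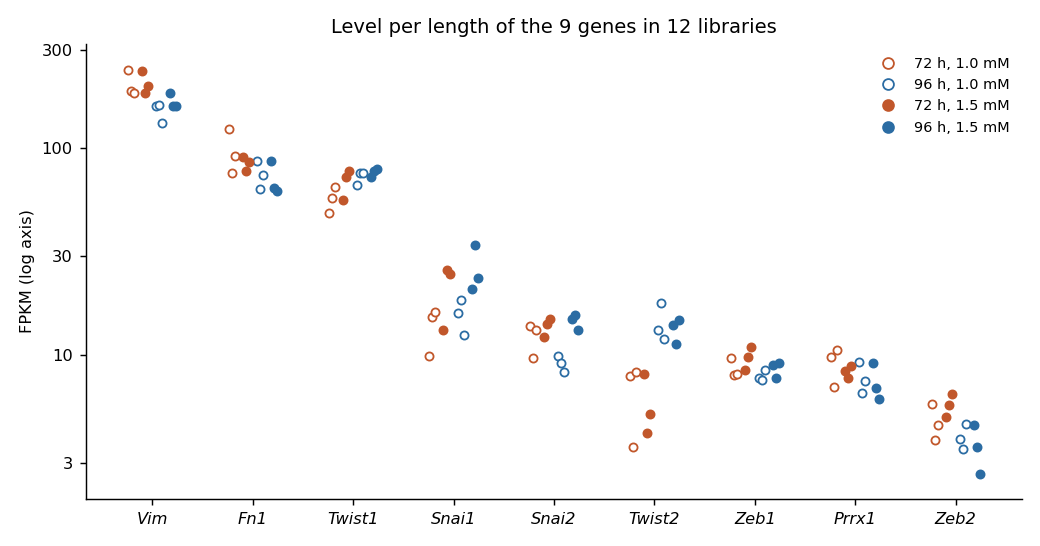
Level per length (FPKM, log axis) of the 9 genes in each of the 12 libraries, ordered by mean; colour gives the embedding time and filled points the 1.5 mM gels. *Vim* stands above all other genes in every library (133 to 239 FPKM), and the 3.57 to 17.8 FPKM of *Twist2* split by embedding time.

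The 9 genes differed in how far they moved between libraries. The highest library held 4.46 times the CPM of the lowest for *Twist2* and 3.83 times for *Snai1*. The ratio was 2.04 for *Snai2*, 2.02 for *Fn1*, 1.92 for *Vim*, 1.77 for *Twist1*, 1.72 for *Prrx1* and 1.65 for *Zeb2*, and the smallest was 1.39 for *Zeb1*.

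**Figure D2:**
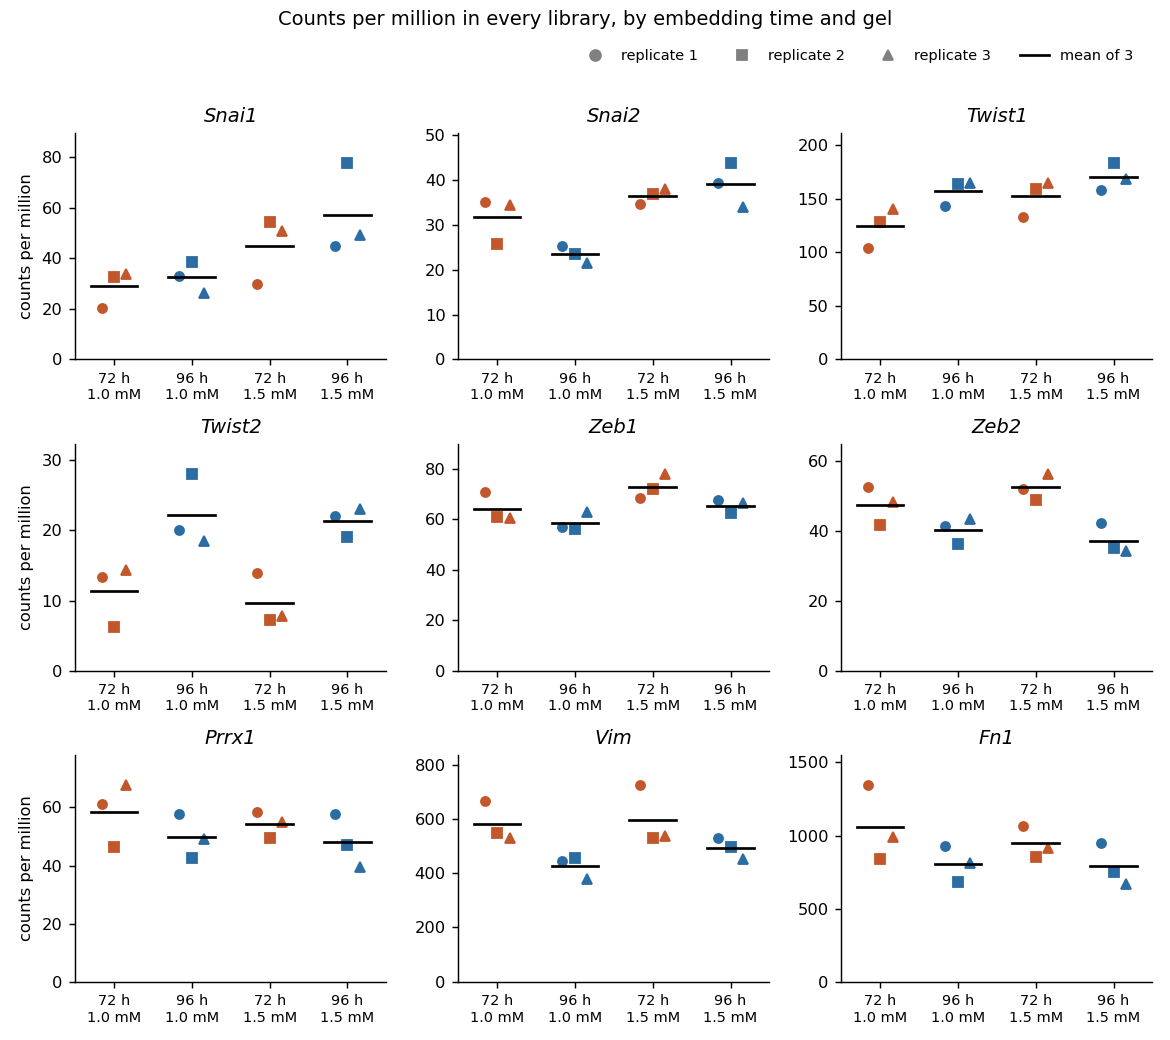
CPM (y axis from 0) of each gene in every library, by embedding time and gel (x axis); symbols give the replicate number and the black line the mean of 3. *Twist2* lies at 6.29 to 14.3 CPM after embedding at 72 h and at 18.5 to 28.1 CPM after embedding at 96 h, while *Zeb1* stays between 55.9 and 78.0 CPM.

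The Snail genes encode zinc-finger repressors. *Snai1* (mm10 chr2:167538195-167542814) is the factor most directly tied to loss of E-cadherin in the gastrulating embryo, and *Snai2* (chr16:14705852-14709385) is best known from neural crest. In 1.0 mM gels *Snai1* measured 20.3, 32.8 and 34.0 CPM in replicates 1, 2 and 3 embedded at 72 h, and 33.0, 38.5 and 26.3 CPM in those embedded at 96 h. The 1.5 mM libraries measured 30.0, 54.4 and 50.8 CPM at 72 h, and 44.8, 77.9 and 49.3 CPM at 96 h.

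The embedding times overlapped for *Snai1* in both gels, and replicate 1 was the lowest library in both 72 h groups and in the 96 h group of 1.5 mM. The log2 fold change of 72 h over 96 h was -0.16 ± 0.190 (SE) in 1.0 mM gels (edgeR, adjusted p = 0.672) and -0.35 ± 0.241 in 1.5 mM gels (adjusted p = 0.333). Without the 72 h replicate 1 in 1.0 mM gels the sign turned, to 0.04.

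*Snai2* in 1.0 mM gels measured 35.1, 25.8 and 34.5 CPM at 72 h and 25.2, 23.6 and 21.5 CPM at 96 h. Its 1.5 mM values were 34.6, 36.9 and 38.0 CPM at 72 h and 39.3, 43.9 and 34.0 CPM at 96 h. The 3 libraries embedded at 96 h in 1.0 mM gels were thus the lowest of the 12 for *Snai2*, and the other 9 lay between 25.8 and 43.9 CPM.

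For *Snai2* the log2 fold change of 72 h over 96 h was 0.45 ± 0.131 in 1.0 mM gels, without overlap between the groups (edgeR, adjusted p = 0.0581), and -0.10 ± 0.0967 in 1.5 mM gels (adjusted p = 0.487). The gene passed the threshold of 0.05 in 1.0 mM gels when the 72 h replicate 2, the lowest of its group, was left out (0.58, adjusted p = 0.00876). The ratio of *Snai1* to *Snai2* in FPKM was 1.17 ± 0.433 (SD, n = 3) at 72 h and 1.72 ± 0.276 (SD, n = 3) at 96 h in 1.0 mM gels. In 1.5 mM gels it was 1.52 ± 0.399 (SD, n = 3) and 1.79 ± 0.399 (SD, n = 3), and the ranges of the groups overlapped in both gels.

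Twist proteins are basic helix-loop-helix factors. *Twist1* (mm10 chr12:33957671-33959829) is needed for cranial mesenchyme and limb mesoderm, and *Twist2* (chr1:91801461-91848028) is known from dermal and other connective tissue precursors. *Twist2* in 1.0 mM gels measured 13.3, 6.29 and 14.3 CPM in the libraries embedded at 72 h and 20.0, 28.1 and 18.5 CPM in those embedded at 96 h. With the stiffer gel it measured 13.9, 7.17 and 7.74 CPM at 72 h and 22.0, 19.0 and 23.1 CPM at 96 h. All 6 libraries embedded at 72 h were below all 6 embedded at 96 h, and the gap ran from 14.3 to 18.5 CPM.

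*Twist2* differed more between embedding times than any other of the 9 genes. The group means were 11.3 ± 4.36 against 22.2 ± 5.13 CPM (SD, n = 3) in 1.0 mM gels and 9.62 ± 3.76 against 21.4 ± 2.12 CPM (SD, n = 3) in 1.5 mM gels. In log2 terms the difference was -0.97 ± 0.260 in 1.0 mM gels (edgeR, adjusted p = 0.0390) and -1.16 ± 0.226 in 1.5 mM gels (adjusted p = 0.0100). Across both gels, with the gel as a term, it was -1.06 ± 0.193 (adjusted p = 9.07e-04).

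The call in 1.0 mM gels was lost without any of the 3 libraries embedded at 96 h (replicate 1, adjusted p = 0.0667; replicate 2, 0.170; replicate 3, 0.0605) and with DESeq2 (-0.97, adjusted p = 0.137). With limma on FPKM, under pseudocounts of 1 and 0.1, it was lost in 1.0 mM gels (-1.06 and -1.18, adjusted p = 0.174 and 0.186) and in 1.5 mM gels (-1.11 and -1.23, adjusted p = 0.0686 and 0.0742). Across both gels *Twist2* passed the threshold in all 20 alternatives run, with log2 fold changes from -1.21 to -0.94. *Gm29100* and *Gm29101* overlap the span of *Twist2*. The counts of *Gm29100* came to 10.1% of the *Twist2* count, and those of *Gm29101* to less. The strand setting of the counting is not stated.

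*Twist1* moved in the same direction by less. In 1.0 mM gels it measured 104, 128 and 141 CPM at 72 h and 143, 164 and 165 CPM at 96 h. In the stiffer gel the values were 133, 159 and 165 CPM at 72 h and 158, 184 and 169 CPM at 96 h. The groups did not overlap in 1.0 mM gels, where 141 and 143 CPM were the nearest values, and overlapped in 1.5 mM gels.

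*Twist1* had a log2 fold change of -0.34 ± 0.111 in 1.0 mM gels (edgeR, adjusted p = 0.0876), -0.16 ± 0.0892 in 1.5 mM gels (adjusted p = 0.221) and -0.25 ± 0.0785 across both (adjusted p = 0.0251). In 1.0 mM gels it passed without the 72 h replicate 3 (-0.44, adjusted p = 0.0387). Across both gels the call was lost without replicate 2 or 3 embedded at 96 h in 1.0 mM (adjusted p = 0.0529 and 0.0553), replicate 1 of 72 h in the 1.5 mM gels (0.0506) or replicate 2 embedded at 96 h in 1.5 mM (0.0512). It was also lost with limma on FPKM (adjusted p = 0.0743 and 0.0757 with pseudocounts of 1 and 0.1).

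The ratio of the 2 paralogues was higher on average after embedding at 72 h. *Twist1* held 10.0 ± 5.33 times the FPKM of *Twist2* at 72 h in 1.0 mM gels (SD, n = 3, range 6.21 to 16.1) and 13.2 ± 5.45 times in the 72 h group of 1.5 mM (SD, n = 3, range 7.01 to 17.4). After embedding at 96 h the ratio was 5.24 ± 1.04 (SD, n = 3, range 4.29 to 6.35) in 1.0 mM and 5.84 ± 0.964 (SD, n = 3, range 5.21 to 6.95) in 1.5 mM gels. These ranges were apart in 1.5 mM gels and met at 6.21 and 6.35 in 1.0 mM gels.

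The Zeb genes encode large zinc-finger homeodomain repressors of epithelial genes. *Zeb2* (mm10 chr2:44983632-45117395) is needed for neural crest and mesoderm, and *Zeb1*, on chromosome 18, is expressed widely in embryonic mesenchyme. *Zeb2* in 1.0 mM gels measured 52.4, 41.5 and 48.1 CPM at 72 h and 41.3, 36.3 and 43.3 CPM at 96 h. The 1.5 mM libraries measured 52.0, 48.9 and 56.3 CPM at 72 h and 42.2, 35.0 and 34.2 CPM at 96 h. The 72 h libraries were all higher in 1.5 mM gels, and the groups overlapped in 1.0 mM gels through the 72 h replicate 2.

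*Zeb2* had a log2 fold change of 0.24 ± 0.108 in 1.0 mM gels (edgeR, adjusted p = 0.221), 0.49 ± 0.0948 in 1.5 mM gels (adjusted p = 0.00939) and 0.36 ± 0.0806 across both (adjusted p = 0.00347). The antisense gene *Zeb2os* overlaps it and held counts equal to 5.58% of the *Zeb2* count. The *Zeb2* call across both gels was lost with limma on FPKM values (adjusted p = 0.0736 and 0.0768 with pseudocounts of 1 and 0.1). Its call in 1.5 mM gels was lost in the same way (0.144 and 0.156).

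*Zeb1* was the steadiest of the 9 genes. It measured 70.8, 60.7 and 60.3 CPM at 72 h and 56.9, 55.9 and 62.8 CPM at 96 h in 1.0 mM gels. Its 1.5 mM values were 68.5, 71.8 and 78.0 CPM at 72 h and 67.6, 62.3 and 66.2 CPM at 96 h. The groups overlapped in 1.0 mM gels and were separated by less than 1 CPM in 1.5 mM gels.

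The log2 fold change of *Zeb1* was 0.13 ± 0.0914 in 1.0 mM gels (edgeR, adjusted p = 0.431), 0.15 ± 0.0703 in 1.5 mM gels (adjusted p = 0.164) and 0.14 ± 0.0561 across both (adjusted p = 0.0689). It passed across both gels without replicate 3 embedded at 96 h in 1.0 mM (0.17, adjusted p = 0.0456). The ratio of *Zeb1* to *Zeb2* in FPKM was 1.84 ± 0.219 (SD, n = 3) at 72 h and 1.99 ± 0.179 (SD, n = 3) at 96 h in 1.0 mM gels. In 1.5 mM gels it was 1.70 ± 0.0137 (SD, n = 3) at 72 h and 2.52 ± 0.812 (SD, n = 3) at 96 h, where 1 library reached 3.45.

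*Prrx1* (mm10 chr1:163245119-163313710) encodes a paired-type homeobox factor of limb bud and craniofacial mesenchyme. It measured 61.2, 46.5 and 67.8 CPM at 72 h and 57.7, 42.5 and 49.1 CPM at 96 h in 1.0 mM gels. With the stiffer gel it measured 58.3, 49.4 and 55.1 CPM at 72 h and 57.9, 47.1 and 39.4 CPM at 96 h. The groups overlapped in both gels, and replicate 1 was above replicate 2 in each of the 4 groups.

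*Prrx1* had a log2 fold change of 0.24 ± 0.143 in 1.0 mM gels (edgeR, adjusted p = 0.359), 0.17 ± 0.128 in 1.5 mM gels (adjusted p = 0.387) and 0.20 ± 0.105 across both (adjusted p = 0.156). The bounds of 2 SE across both gels ran from -0.01 to 0.41 on the log2 scale.

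*Vim* (mm10 chr2:13573927-13582826) encodes vimentin, the intermediate filament of mesenchymal cells. It measured 668, 549 and 531 CPM at 72 h and 446, 457 and 379 CPM at 96 h in 1.0 mM gels. In the stiffer gel the values were 726, 529 and 538 CPM at 72 h and 531, 498 and 452 CPM at 96 h. The 72 h libraries were all higher in 1.0 mM gels, and in 1.5 mM gels only the 529 CPM of the 72 h replicate 2 fell within the 96 h range. Replicate 1 was the highest of its group in 3 of the 4 groups.

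*Vim* had a log2 fold change of 0.45 ± 0.110 in 1.0 mM gels (edgeR, adjusted p = 0.0259), 0.27 ± 0.121 in 1.5 mM gels (adjusted p = 0.142) and 0.36 ± 0.0882 across both (adjusted p = 0.00657). In 1.0 mM gels the call was lost without replicate 1 embedded at 72 h (0.34, adjusted p = 0.0677) and without replicate 1, 2 or 3 embedded at 96 h (adjusted p = 0.0623, 0.0582 and 0.138). It was also lost there with limma on FPKM (adjusted p = 0.173 and 0.179 with pseudocounts of 1 and 0.1). Across both gels *Vim* passed in all 20 alternatives run, with log2 fold changes from 0.29 to 0.41.

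*Fn1* (mm10 chr1:71585520-71653200) encodes fibronectin, the matrix glycoprotein on which mesodermal cells migrate. It measured 1347, 837 and 993 CPM at 72 h and 926, 679 and 810 CPM at 96 h in 1.0 mM gels. The 1.5 mM libraries measured 1068, 854 and 916 CPM at 72 h and 952, 751 and 667 CPM at 96 h. The groups overlapped in both gels, and replicate 1 was the highest library of every group.

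For *Fn1* the log2 fold change was 0.40 ± 0.165 in 1.0 mM gels (edgeR, adjusted p = 0.170), 0.26 ± 0.130 in 1.5 mM gels (adjusted p = 0.193) and 0.33 ± 0.117 across both (adjusted p = 0.0439). Left out singly, 8 of the 12 libraries ended the call across both gels: in 1.0 mM gels replicates 1 and 3 at 72 h (adjusted p = 0.105 and 0.0577) and replicates 2 and 3 at 96 h (0.107 and 0.0714), and in 1.5 mM gels replicates 1 and 3 at 72 h (0.0957 and 0.0515) and replicates 2 and 3 at 96 h (0.0774 and 0.0999). Within a single gel it passed without the 72 h replicate 2 in 1.0 mM gels (0.55, adjusted p = 0.0399) and without the 96 h replicate 1 in 1.5 mM gels (0.41, adjusted p = 0.0412). With every library kept it passed in edgeR with the replicate number as a block (0.0104 in 1.0 mM and 0.0342 in 1.5 mM gels). Without the low-count filter it passed as well (4.66e-04 and 0.0312). Limma on FPKM also ended the call across both gels (adjusted p = 0.119 and 0.120 with pseudocounts of 1 and 0.1).

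**Figure D3:**
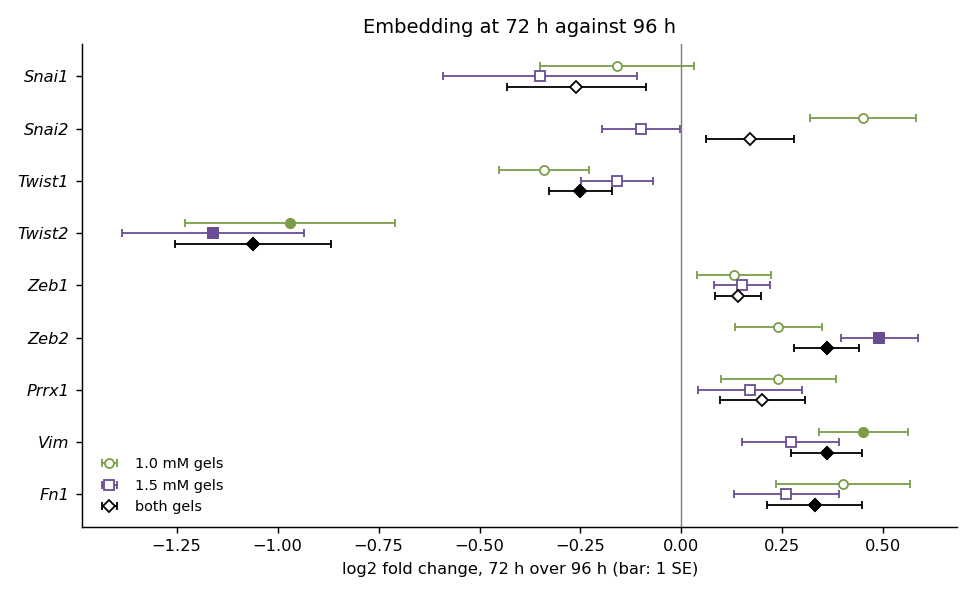
Log2 fold change of 72 h over 96 h (x axis, bars 1 SE) for each of the 9 genes in 1.0 mM gels, 1.5 mM gels and both; filled points passed an adjusted p of 0.05 (edgeR). *Twist2* lies near -1 in every comparison (-0.97, -1.16 and -1.06), *Vim* and *Fn1* lie above 0, and *Snai2* changes side between the gels.

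Counted over the 9 genes, 2 passed the adjusted p of 0.05 in 1.0 mM gels (*Twist2* lower and *Vim* higher after embedding at 72 h), where 9.24% of all genes tested passed. None of the 9 also had an absolute log2 fold change above 1 there, against 4.30% of all genes. In edgeR 5 of the 9 had an unadjusted p below 0.05, against 22.9% of all genes, and DESeq2 called 3 at the adjusted threshold (*Snai2*, *Twist1* and *Vim*), against 7.50%. There was no overlap of libraries for 4 of the 9 (*Snai2*, *Twist1*, *Twist2* and *Vim*), against 28.4% of all genes. In 1.5 mM gels 2 genes passed (*Twist2* lower and *Zeb2* higher), against 19.3% of all genes, and DESeq2 called the same 2, against 20.9%. An unadjusted p below 0.05 in edgeR was found for 3 (*Twist2*, *Zeb2* and *Vim*), against 35.1% of all genes. *Twist2* also had an absolute log2 fold change above 1, as did 3.18% of all genes, and 3 genes did not overlap (*Twist2*, *Zeb1* and *Zeb2*), against 39.9%.

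Across both gels 5 of the 9 passed, with *Zeb2*, *Vim* and *Fn1* higher and *Twist1* and *Twist2* lower after embedding at 72 h, against 31.1% of all genes tested. DESeq2 called the same 5, against 26.7% of all genes, and 6 had an unadjusted p below 0.05 in edgeR with *Zeb1* added, against 42.5%. *Twist2* also exceeded an absolute log2 fold change of 1, against 4.66% of all genes. The median log2 fold change of the 9 was 0.17, against -0.01 over all genes, and 6 were positive and 3 negative. These shares are printed only to show how common such calls were, since the genes were chosen with the comparisons known.

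None of the 9 genes passed the adjusted threshold between gels at a fixed embedding time in limma-voom. Nor did any in edgeR with every library, the low-count filter and no replicate term. At 72 h the genes with the largest log2 fold changes of 1.5 mM over 1.0 mM were *Snai1* (0.63 ± 0.233, adjusted p = 0.698), *Twist1* (0.30 ± 0.123, adjusted p = 0.704) and *Twist2* (-0.23 ± 0.322, adjusted p = 0.882) in edgeR. The *Snai1* libraries measured 30.0, 54.4 and 50.8 CPM in 1.5 mM gels and 20.3, 32.8 and 34.0 CPM in 1.0 mM gels, and overlapped through the low replicate 1. Number by number, each replicate was higher in 1.5 mM gels. With the replicate number as a block *Snai1* passed (edgeR, adjusted p = 0.0210), against 43 of 15563 genes, though the labels do not make the numbers a pairing. DESeq2, without a replicate term, called none of the 9. Over all genes 0% passed in edgeR without that term and 0.0975% in DESeq2. An unadjusted p below 0.05 in edgeR was found for 2 of the 9 (*Snai1* and *Twist1*), against 6.90% of all genes. None of the 9 was without overlap between the gels, against 11.1% of all genes.

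At 96 h the Snail genes had the largest differences. *Snai1* measured 44.8, 77.9 and 49.3 CPM in 1.5 mM gels and 33.0, 38.5 and 26.3 CPM in 1.0 mM gels. *Snai2* measured 39.3, 43.9 and 34.0 CPM in 1.5 mM gels and 25.2, 23.6 and 21.5 CPM in 1.0 mM gels. Every library in 1.5 mM gels was above every library in 1.0 mM gels for both, and these were the 2 of the 9 genes without overlap, against 15.5% of all genes.

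The log2 fold change of 1.5 mM over 1.0 mM at 96 h was 0.82 ± 0.187 for *Snai1* (edgeR, adjusted p = 0.189), 0.74 ± 0.104 for *Snai2* (adjusted p = 0.0682) and 0.21 ± 0.0852 for *Vim* (adjusted p = 0.451). None of the 9 passed in edgeR with every library, the low-count filter and no replicate term, where 0% of all genes did. In that fit 4 had an unadjusted p below 0.05 (*Snai1*, *Snai2*, *Zeb1* and *Vim*), against 9.95% of all genes. With the replicate number as a block, *Snai1* (adjusted p = 9.91e-05) and *Snai2* (7.61e-05) passed in edgeR, against 289 of 15861 genes. The labels do not make the numbers a pairing. DESeq2 called *Snai2* (0.74, adjusted p = 2.78e-07), against 0.547% of all genes. In edgeR *Snai2* passed without replicate 1 or replicate 3 embedded at 96 h in 1.5 mM (adjusted p = 0.0449 and 0.0302).

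Across both embedding times the largest log2 fold changes were those of *Snai1* (0.73 ± 0.173, edgeR, adjusted p = 0.135), *Snai2* (0.47 ± 0.108, adjusted p = 0.125) and *Twist1* (0.21 ± 0.0785, adjusted p = 0.289). None of the 9 passed in edgeR with every library, the low-count filter and no replicate term, against 0.0305% of all genes. In that fit 4 had an unadjusted p below 0.05 (*Snai1*, *Snai2*, *Twist1* and *Zeb1*), against 12.7%. With the replicate number as a block *Snai1* passed in edgeR (adjusted p = 0.0225), against 81 of 16388 genes. DESeq2 called *Snai2* (0.46, adjusted p = 0.00778), against 1.46% of all genes, limma-voom called none, and *Snai1* passed in edgeR without replicate 1 of 72 h in the 1.5 mM gels (0.83, adjusted p = 0.0424). Of the 5 genes called between embedding times, *Twist1* had bounds of 2 SE from 0.05 to 0.36, above 0. The bounds of the other four spanned 0, from -0.52 to 0.25 for *Twist2*, -0.15 to 0.18 for *Zeb2*, -0.05 to 0.30 for *Vim* and -0.33 to 0.14 for *Fn1*.

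The interaction asked whether the difference between embedding times depended on the gel. None of the 9 passed in edgeR with the low-count filter and no replicate term, where 0% of all genes did. None passed in limma-voom or in DESeq2, which called 0.00637% of all genes. *Snai2* alone of the 9 had an unadjusted p below 0.05, against 4.32% of all genes, with a log2 difference of -0.54 ± 0.170 (edgeR, adjusted p = 0.953), 72 h over 96 h being higher in 1.0 mM gels. It was followed by *Zeb2* (0.27 ± 0.151, adjusted p = 0.953) and *Snai1* (-0.18 ± 0.351, adjusted p = 0.971), whose sign turned to 0.02 without replicate 1 of the 72 h group of 1.5 mM and to 0.08 without replicate 2 embedded at 96 h in 1.5 mM.

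**Figure D4:**
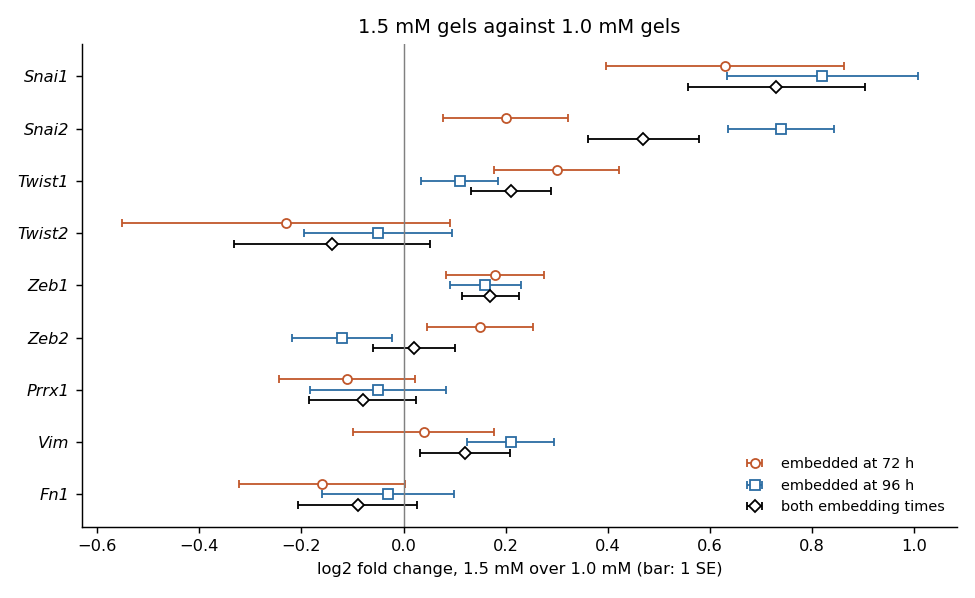
Log2 fold change of 1.5 mM over 1.0 mM gels (x axis, bars 1 SE) for each of the 9 genes after embedding at 72 h, at 96 h and across both. All points are open because none passed an adjusted p of 0.05 (edgeR with the low-count filter and no replicate term). The largest values are those of *Snai1* (0.63, 0.82 and 0.73), and *Snai2* is largest after embedding at 96 h (0.74).

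Related genes were counted in lists across both gels, with the median log2 fold change of 72 h over 96 h beside the -0.01 of all genes. Higher and lower count genes past the adjusted p of 0.05 in edgeR, which 31.1% of all genes tested passed. The list genes named were picked by that fit, and some did not pass within a single gel. Among other factors and co-repressors of the transition, 2 of the 13 tested were higher and 4 lower after embedding at 72 h (median -0.11). *Foxc2*, a forkhead factor of paraxial mesoderm, was lower (-0.53 ± 0.145, edgeR, adjusted p = 0.0130), and *Sox9*, a factor of cartilage and neural crest, was higher (0.46 ± 0.0977, adjusted p = 0.00257).

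Of the signals that drive the transition, 8 of 15 tested were higher and 2 lower (median 0.19). *Bmp4*, a ligand of the ventral and posterior mesoderm, was higher (0.85 ± 0.262, edgeR, adjusted p = 0.0224), as were the ligands *Tgfb1* (0.48, adjusted p = 0.00241) and *Tgfb2* (0.48 ± 0.154, adjusted p = 0.0283). In 1.0 mM gels alone they measured 1.26, 0.67 and 0.70 and passed (adjusted p = 0.0400, 0.00336 and 0.0292). In 1.5 mM gels alone they measured 0.45, 0.29 and 0.26 and did not (0.208, 0.154 and 0.361). *Fgf4*, a ligand of the primitive streak and tail bud, was lower (-2.47 ± 0.220, adjusted p = 2.44e-06) at 0.900 against 4.86 CPM in 1.0 mM gels, and *Tgfb3* was lower as well (-0.74 ± 0.124, adjusted p = 4.69e-04).

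Receptors and partners of fibronectin had the median furthest above 0 among the lists of the transition (0.42), with 5 of 8 higher and 1 lower. The integrin subunits *Itga8* (0.98 ± 0.122, edgeR, adjusted p = 4.77e-05), *Itga4* (0.79 ± 0.188, adjusted p = 0.00580) and *Itgav* (0.50 ± 0.0640, adjusted p = 5.36e-05) were higher after embedding at 72 h. *Itga8* measured 16.4 ± 1.83 against 8.50 ± 0.835 CPM in 1.0 mM gels and 19.2 ± 3.29 against 9.51 ± 2.60 CPM in 1.5 mM gels (SD, n = 3). *Fbln1*, a fibulin that binds fibronectin, was lower (-0.26 ± 0.0473, adjusted p = 8.46e-04).

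Other mesenchymal markers were split, with 5 of 18 tested higher and 4 lower (median 0.06). *Cdh2*, the cadherin of mesenchymal and neural cells, was higher (0.50 ± 0.119, edgeR, adjusted p = 0.00569), as were the membrane protease *Mmp14* (0.57 ± 0.169, adjusted p = 0.0191) and the matrix gene *Postn* (0.93 ± 0.211, adjusted p = 0.00401), the last at 2.42 CPM or less on average in each group. The fibrillar collagens *Col3a1* (-0.76 ± 0.208, adjusted p = 0.0123), *Col1a1* (-0.70 ± 0.222, adjusted p = 0.0270) and *Col1a2* (-0.54 ± 0.163, adjusted p = 0.0205) were lower. Of the other intermediate filament genes, 1 of 9 tested was higher (the muscle filament *Des*, 0.61 ± 0.211, adjusted p = 0.0399) and 2 were lower (the neurofilaments *Nefl*, -0.85 ± 0.152, adjusted p = 8.01e-04, and *Nefm*, -0.60 ± 0.201, adjusted p = 0.0356). Fitted by gel, *Col3a1* and *Col1a1* passed in neither, and *Cdh2* (0.27, edgeR, adjusted p = 0.281) and *Mmp14* (0.57, 0.196) not in 1.0 mM gels. In 1.5 mM gels *Postn* (0.95, 0.0822), *Col1a2* (-0.25, 0.280), *Des* (0.29, 0.407) and *Nefm* (-0.17, 0.640) did not pass.

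Between embedding times epithelial genes did not move as a block, with 6 of 24 tested higher, 4 lower and a median of -0.02. The simple keratins were higher after embedding at 72 h: *Krt8* measured 184 ± 18.5 against 80.0 ± 9.74 CPM in 1.0 mM gels and 144 ± 21.1 against 73.5 ± 8.91 CPM in 1.5 mM gels (SD, n = 3). Its log2 fold change across both gels was 1.08 ± 0.0895 (edgeR, adjusted p = 1.17e-06), beside 1.09 ± 0.112 for *Krt19* and 0.75 ± 0.0859 for *Krt18*. The splicing factor *Esrp2* (-1.23 ± 0.195, adjusted p = 3.35e-04), the claudin *Cldn4* (-0.75 ± 0.107, adjusted p = 1.42e-04) and the epithelial factor *Grhl2* (-0.55 ± 0.155, adjusted p = 0.0150) were lower. The summed level of the 25 epithelial genes was 906 to 1064 CPM at 72 h against 705 to 769 CPM at 96 h with 1.0 mM gels, and 751 to 901 against 600 to 740 CPM with 1.5 mM gels.

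**Figure D5:**
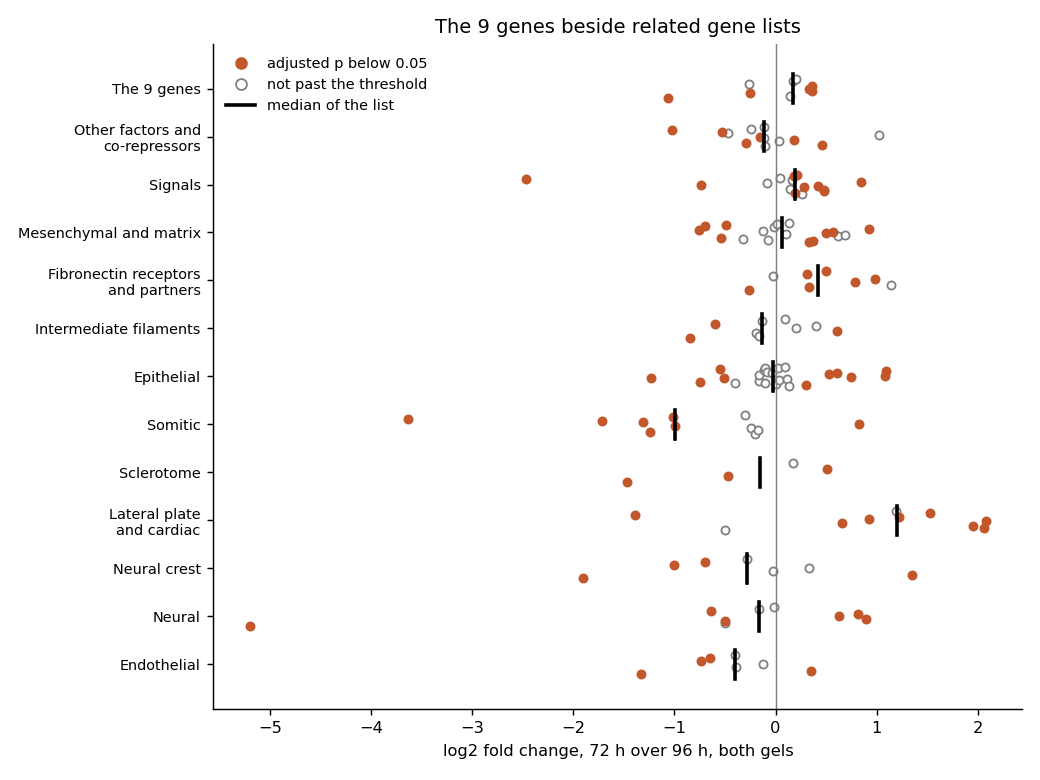
Log2 fold change of 72 h over 96 h across both gels (x axis) for each tested gene of the 9 and of 12 related lists; filled points passed an adjusted p of 0.05 (edgeR) and bars are list medians. Somitic markers lie to the left (median -0.99), lateral plate and cardiac markers to the right (median 1.20), and the 9 genes near 0 (median 0.17). The point at -5.20 is *Olig2*, at most 0.704 CPM on average in any group, whose fitted value depends on the prior count.

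Markers of several tissues moved with embedding time beside these genes, and their part in the results was not tested. Higher and lower again count genes past the adjusted threshold across both gels, beside 31.1% of all genes tested. Presomitic and somitic markers were lower after embedding at 72 h in 6 of the 11 tested and higher in 1, and the 13 summed to 232 to 340 against 695 to 780 CPM in 1.0 mM gels and 237 to 409 against 507 to 656 CPM in 1.5 mM gels. *Meox1*, a homeobox factor of somites, measured 89.4 ± 36.6 against 367 ± 38.8 CPM in 1.0 mM gels (SD, n = 3). Its log2 fold change across both gels was -1.72 ± 0.199 (edgeR, adjusted p = 2.45e-05), beside -3.64 ± 0.221 for *Meox2* and -1.31 ± 0.210 for *Tcf15*, while *Dll3*, a Notch ligand of presomitic mesoderm, was higher (0.83 ± 0.158, adjusted p = 0.00126).

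Lateral plate and cardiac markers went the other way, with 7 of 10 higher and 1 lower. Their sum was 520 to 854 against 117 to 239 CPM in 1.0 mM gels and 444 to 728 against 246 to 413 CPM in 1.5 mM gels. The cardiac factors *Gata4* (1.95 ± 0.285, edgeR, adjusted p = 1.66e-04), *Tbx20* (2.08 ± 0.356, adjusted p = 5.94e-04) and *Tbx5* (2.06 ± 0.456, adjusted p = 0.00347) were higher after embedding at 72 h, and *Tbx18* was lower (-1.39 ± 0.208, adjusted p = 2.06e-04). Between the gels at 96 h the lateral plate sums did not overlap either, at 246 to 413 CPM in 1.5 mM and 117 to 239 CPM in 1.0 mM gels, beside the differences in *Snai1* and *Snai2*. The same held for the somitic sums, 507 to 656 CPM in 1.5 mM against 695 to 780 CPM in 1.0 mM gels, and for the endothelial sums, 402 to 454 against 330 to 360 CPM. Sums of the fibronectin partners (598 to 615 against 617 to 646 CPM) and of the gastruloid markers (835 to 947 against 962 to 991 CPM) were also apart. At 72 h the epithelial sums were apart, at 751 to 901 CPM in 1.5 mM and 906 to 1064 CPM in 1.0 mM gels. How often sums of other lists come apart, and any link to *Snai1* and *Snai2*, was not tested.

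Neural crest markers, a further source of *Snai2*, *Twist1* and *Zeb2* in embryos, were higher in 1 and lower in 3 of the 7 tested. Of the 9 listed, *Sox10* and *Tfap2b* did not pass the low-count filter in either gel. The whole list summed to 69.5 to 112 against 154 to 190 CPM in 1.0 mM gels and 89.3 to 107 against 136 to 196 CPM in 1.5 mM gels. Most of that sum was *Ets1*, also an endothelial factor, at 67.0 ± 21.6 against 151 ± 22.5 CPM in 1.0 mM gels (SD, n = 3). The defining factor *Foxd3* was at most 2.57 CPM on average in any group (-1.91 ± 0.296, edgeR, adjusted p = 2.71e-04), and *Tfap2a* was higher after embedding at 72 h (1.35 ± 0.276, adjusted p = 0.00209). The level of *Tfap2a* was also low, at most 3.79 CPM on average in any group.

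The remaining marker lists held fewer genes. Of the sclerotome markers, *Pax1* (-1.47 ± 0.299, edgeR, adjusted p = 0.00201) and *Pax9* (-0.47 ± 0.144, adjusted p = 0.0233) were lower after embedding at 72 h. Neural tube markers were higher in 3 and lower in 3 of the 9 tested, with *Pax6* (0.82 ± 0.185, adjusted p = 0.00403) above and *Sox2* (-0.50 ± 0.0920, adjusted p = 9.88e-04) below. Endothelial markers were higher in 1 (*Kdr*, 0.35 ± 0.0868, adjusted p = 0.00705) and lower in 3 of 7, *Emcn* among them (-1.33 ± 0.239, adjusted p = 8.28e-04). No gene of any list was at 0 in all 12 libraries. In the comparisons of gels 0 genes of these 13 lists passed the adjusted threshold in limma-voom. The same held in edgeR with every library, the low-count filter and no replicate term. At an unadjusted p below 0.05 in edgeR, 23 of the 138 list genes tested passed at 72 h, 34 of 140 at 96 h and 24 of 141 across both embedding times, against 6.90%, 9.95% and 12.7% of all genes. DESeq2 called 1 at 72 h (*Uncx*), 4 at 96 h (*Kdr*, *T*, *Cdx2* and *Nkx1-2*) and 7 across both embedding times, of which 5 were epithelial genes (*Cldn4*, *Cldn6*, *Crb3*, *Esrp2* and *St14*) and the other two *T* and *Cdx2*. These genes are named because DESeq2 called them, after their values were seen. Of the 24 epithelial genes tested, 22 were lower in 1.5 mM than in 1.0 mM gels at 72 h, 22 at 96 h and 22 across both. The medians of their log2 fold changes were -0.27, -0.22 and -0.24, against -0.00 over all genes in each comparison. The fit across both embedding times reuses the libraries of the single-time fits and is no separate result. The share of all genes that were lower was not counted. An unadjusted p below 0.05 in edgeR was found for 10, 6 and 10 of the 24, against the 6.90%, 9.95% and 12.7% of all genes.

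The genes whose log2 CPM was most like that of each of the 9 were read over the 12 libraries, among 9728 genes with a mean of at least 10 CPM. These correlations are descriptions over libraries that share embedding times and replicate numbers. *Snai1* was most like *Pdlim7* (Pearson's r = 0.97) and the Notch target *Hes1* (0.96), and *Snai2* was most like the TGF-beta inhibitor *Smad7* (0.93) and *Maf* (0.91). *Twist1* followed *Epc1* (0.97) and *Nr1d2* (0.95), and *Prrx1* followed *Elk1* (0.95) and *Arid5b* (0.92).

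*Twist2* was most like *Mest* (0.96) and *Cep41* (0.95). Within the 6 libraries embedded at 72 h these values were 0.95 and 0.90, and within the 6 embedded at 96 h they were 0.46 and 0.07. *Zeb1* was most like *Sec63* (0.96) and *Ercc6l2* (0.96), and *Zeb2* was most like *Otud4* (0.98) and *Purb* (0.98). *Vim* was most like *Lyst* (0.97) and the ligand *Tgfb1* (0.97), and *Fn1* was most like *Wdr19* (0.98) and the FGF receptor *Fgfr1* (0.96).

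Among the 9 genes themselves, correlation within an embedding time was uneven. *Snai1* and *Twist1* had r = 0.97 over the 6 libraries embedded at 72 h and 0.67 over the 6 embedded at 96 h. *Prrx1* and *Fn1* had r = 0.66 and 0.99, and *Snai1* and *Snai2* had 0.29 and 0.90. *Snai1* and *Vim* went from -0.70 to 0.72, and *Snai2* and *Zeb2* from 0.89 to -0.42.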

How the data were processed

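Poly-A RNA of pooled gastruloids was sequenced in 12 libraries, 3 for each embedding time and gel. Per the study's methods and the submitters' processing notes, the authors trimmed reads with cutadapt 4.4, aligned them to mm10 with STAR 2.7.10b and an Ensembl gene set they had adapted. The count table was deposited by the authors as raw counts, not normalized. The methods of the study credit the counts to STAR but the deposited table carries the name HTSeq, and the strand setting of the counting is not stated. The authors computed FPKM with Cufflinks 2.2.1.3 and deposited these values in a separate table. The authors' table of comparisons lists fold changes on the log2 scale with adjusted p-values and was not used.

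The 36 mitochondrial genes were left out, as in the study. Tools were edgeR 4.0.16, DESeq2 1.42.0 and limma 3.58.1, run in R 4.3.3. Counts were scaled with TMM, low genes were removed with filterByExpr (at least 10 counts and 15 in total), and the rest were tested with edgeR's quasi-likelihood test, with Benjamini-Hochberg adjustment over all genes tested. Each comparison of groups used its own 6 libraries, and the comparisons across both gels or both embedding times and the interaction used all 12. CPM values use TMM-scaled totals. The procedure was tested on simulated data. Libraries of a group differed by more than sampling noise (chi-square per degree of freedom 10.1 to 123 over 12 pairs), and none was treated as a duplicate.

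The 9 genes, the gene lists and the tests were chosen with earlier results of these data known. The genes named are the 9 in every comparison of embedding time, the 3 with the largest change in each comparison of gels and in the interaction, up to 3 genes per direction of each other list, the 2 most alike genes of each of the 9, and genes whose span overlaps them. Some genes that this rule names are not reported here. Alternatives were DESeq2, limma-voom, RLE scaling, no filter, a filter of 1 CPM in 3 libraries, limma on log2(FPKM + 1) and log2(FPKM + 0.1), replicate number as a block, all 12 libraries in 1 fit, and each library left out.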

Additional observations from a re-analysis of the deposited data

How the results depend on the processing

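Each log2 fold change named for the 9 genes was recomputed under every alternative. Of 660 recomputed values, 587 kept their direction and side of the threshold, 34 lost the call, 36 gained it and 3 changed sign. The 3 were *Snai1* between embedding times in 1.0 mM gels (-0.29 to 0.04 with 1 library left out, 0.04 without the 72 h replicate 1) and *Snai1* in the interaction (-0.38 to 0.08, with 0.02 without the 72 h replicate 1 and 0.08 without the 96 h replicate 2, both of 1.5 mM). Without a filter on low counts, more of the 9 genes passed: 5 rather than 2 between embedding times in 1.0 mM gels, 4 rather than 2 in 1.5 mM gels, 1 rather than 0 between gels at 72 h, 2 rather than 0 at 96 h, 3 rather than 0 across both times, and 1 rather than 0 in the interaction. Over all genes, fits without a filter called 2283 of 29070 and 3605 of 28917 between embedding times in 1.0 and 1.5 mM gels. Between gels they called 322 of 28603 at 72 h, 333 of 29248 at 96 h and 512 of 31406 across both times. The interaction had 238 of 31406. With limma on FPKM, under either pseudocount, the counts were 0 in 1.0 mM gels, 0 in 1.5 mM gels and 2 rather than 5 across both gels. Over all genes they were 276 and 224 of 15763, 596 and 482 of 15683, and 3639 and 3553 of 16388 (pseudocounts of 1 and 0.1). DESeq2 called 1 between gels at 96 h and 1 across both times, against 0.547% and 1.46% of all genes. Leaving out 1 library gave 0 to 4 genes in 1.0 mM gels, 2 to 3 in 1.5 mM gels, 3 to 5 across both gels, 0 to 1 between gels at 96 h and 0 to 1 across both times. Over all genes the counts in these fits were 731 to 1680, 1181 to 4102, 3944 to 5671, 0 to 26 and 2 to 80. The causes were not tested.

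With the replicate number as a block (replicate block), 5 of the 9 passed between embedding times in 1.0 mM gels, 4 in 1.5 mM gels and 5 across both gels, and 1 between gels at 72 h (*Snai1*, adjusted p = 0.0210), 2 at 96 h (*Snai1*, 9.91e-05, and *Snai2*, 7.61e-05) and 1 across both times (*Snai1*, 0.0225). Over all genes the block called 2122 of 15763 between embedding times in 1.0 mM gels and 3885 of 15683 in 1.5 mM gels. Across both gels it called 5955 of 16388. Between gels it called 43 of 15563 at 72 h, 289 of 15861 at 96 h and 81 of 16388 across both times. Libraries with the same number deviated together with r from 0.04 to 0.31, over 0.1 in 13 of 18, and 17 of 18 were most alike with their own number. That is a hint from the data, and nothing in the labels makes the numbers a pairing.

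Over all genes, the counts changed at the adjusted threshold between embedding times went from 1457 to 2283 without a filter and to 276 and 224 with limma on FPKM in 1.0 mM gels, and from 3033 to 596 and 482 in 1.5 mM gels. Between gels they went from 0 to 14 with DESeq2, 322 without a filter and 43 with the replicate block at 72 h, and from 0 to 86, 333 and 289 at 96 h. Of the related lists across both gels, the counts moved by over 1.5 times for signals (10, range 6 to 12), mesenchymal markers (9, range 3 to 11), intermediate filaments (3, range 1 to 4) and sclerotome (3, range 1 to 3). Between gels, the genes of the 13 lists past the threshold went from 0 to 16 at 72 h, 23 at 96 h and 22 across both times without a filter, and to 2, 17 and 0 with the replicate block.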
